A study of Homo sapiens with 2 samples.

Results

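The genes described here are 10 enzymes of serine, glycine and one-carbon metabolism: PHGDH, PSAT1, PSPH, SHMT1, SHMT2, MTHFD1, MTHFD1L, MTHFD2, ASNS and GLDC. They were picked by gene symbol from the read counts of 2 RNA sequencing libraries, and all 10 were found among 24462 symbols, each on 1 row. The hESC library came from undifferentiated H9, an established human embryonic stem cell line. The NPC library came from neural precursor cells made from H9 by co-culture with MS5, a mouse stromal line that serves as a feeder layer. The labels give 1 library for each group and no further treatment, time or genotype, so no test between conditions was possible. All intervals below are 95% counting intervals, which hold no variation between cultures.

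Serine is built from a glycolytic intermediate in the order PHGDH, PSAT1 and PSPH. Serine hydroxymethyltransferases (SHMT1 in the cytosol, SHMT2 in mitochondria) then split serine into glycine and a carbon unit carried by folate. MTHFD2 and MTHFD1L turn that unit into formate in mitochondria, and the cytosolic enzyme MTHFD1 takes formate up again for purines, thymidylate and methyl groups. GLDC, a subunit of the glycine cleavage system, feeds the same folate pool from glycine, and ASNS makes asparagine. The pathway is known for its activity in proliferating cells, pluripotent stem cells included, and the glycine cleavage system for its role in neural tube closure.

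Counted reads came to 19686728 for hESC and 24065750 for NPC. Counts are given as CPM, counts scaled to a library size that was adjusted by trimmed mean of M-values (TMM). A gene was called measured at 5 CPM or more in either library, and a call of higher or lower needed a whole interval beyond a 2-fold difference, so that its near bound, the end closest to equality, was at least 2-fold. The marker genes went with the labels: all 8 pluripotent cell markers were lower in the NPC library, where POU5F1 had 18 reads, and 6 of 8 neural precursor markers were higher. Of 8 neuron markers 5 were higher and 1 lower, and their summed level went from 302 to 1610 CPM. Of 7 measured stroma and fibroblast markers 5 were higher and 1 lower (659 to 974 CPM summed over 8), and of 3 measured astroglia markers 2 were higher and 1 lower (428 to 281 CPM summed over 6). These sums hide opposite changes. Among the stroma markers COL3A1 went from 0.633 to 288 CPM and THY1 from 267 to 23.5 CPM. GJA1 (404 and 159 CPM) held most of the astroglia sum, while S100B (0.805 and 38.2 CPM) and SLC1A3 (17.5 and 80.7 CPM) were higher. GFAP (35 and 44 reads), AQP4 (45 and 15 reads) and ALDH1L1 were below the filter. In the neuron list MAP2 went from 13.7 to 861 CPM and RBFOX3 from 22.8 to 2.17 CPM. TUBB3 (213 and 196 CPM) and SYN1 (21.7 and 16.4 CPM) did not pass the rule. Among all measured genes 19.8% were called lower and 19.6% higher. The part of these cell types in the values below was not tested, and in bulk RNA fewer cells of a type and less RNA per cell cannot be told apart. How many reads came from MS5 cells was not analysed here.

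The enzymes were lower in the NPC library in most cases, and none was called higher. Of the 10 enzymes, all measured in both libraries, 7 were called lower: MTHFD2, MTHFD1L, MTHFD1, PHGDH, SHMT2, ASNS and PSAT1. PSPH, GLDC and SHMT1 did not pass the rule. Of all 13535 measured genes 19.8% were called lower and 19.6% higher. Of the 10804 genes with 5 CPM or more in both libraries 17.2% were called lower and 12.8% higher. Among the 6474 genes whose hESC level lay in the range of the 10 enzymes, 26.8% were called lower. The log2 ratio, NPC over hESC, was below 0 for 10 of 10 enzymes, against 55.5% of the genes at 5 CPM in both libraries. The median log2 ratio of the enzymes was -1.95, and that of all measured genes was -0.09. Together they took 36328 reads of the hESC library and 14141 of the NPC library. Over the library totals, without TMM, that is 1850 CPM (1830 to 1860) and 588 CPM (578 to 597).

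**Figure D1:**
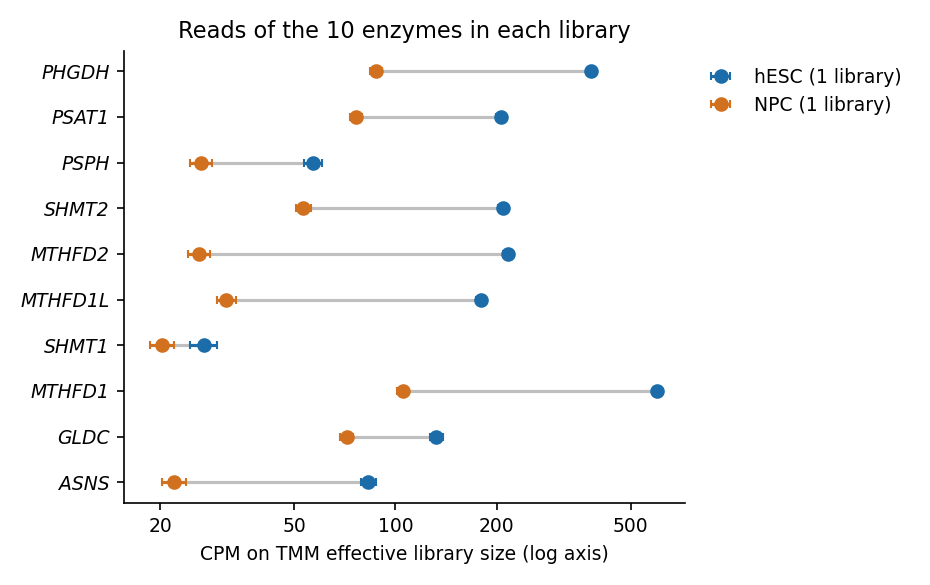
CPM (log axis) of the 10 enzymes in the hESC library (blue) and the NPC library (orange), 1 library each, with 95% counting intervals. Each orange point lies left of its blue point, with the widest gap for MTHFD2 (216 and 26.1 CPM) and the narrowest for SHMT1 (26.9 and 20.2 CPM).

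The 3 enzymes of serine synthesis differed unevenly. PHGDH, the dehydrogenase that opens the pathway, had 6646 hESC reads (382 CPM) and 2380 NPC reads (87.5 CPM) and was 4.37-fold lower (4.17 to 4.58). PSAT1, the aminotransferase of the next step, had 206 and 76.4 CPM and was 2.69-fold lower (2.55 to 2.84). PSPH, the phosphatase that releases serine, had 57 and 26.4 CPM, a 2.16-fold difference (1.96 to 2.38) whose near bound just missed the rule. The first step therefore differed most and the last least, with intervals that do not overlap between neighbouring steps. The ratio of PSPH to PHGDH reads was 2.02-fold higher (1.81 to 2.25) in the NPC than in the hESC library, and the ratio of PHGDH to PSAT1 reads was 0.616 of its hESC value (0.573 to 0.662). Such ratios within a library do not depend on the scaling of library sizes.

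All 3 mitochondrial folate enzymes among the 10 were lower. MTHFD2, the dehydrogenase and cyclohydrolase of this arm, had 3757 hESC reads (216 CPM) and 710 NPC reads (26.1 CPM). It was 8.28-fold lower (7.64 to 8.99), and 3.99% of all measured genes had a lower log2 ratio. MTHFD1L, which releases formate from formyl-tetrahydrofolate, had 180 and 31.4 CPM and was 5.72-fold lower (5.30 to 6.18). SHMT2 had 209 and 53.2 CPM and was 3.92-fold lower (3.69 to 4.17). The 3 genes summed went from 604 to 111 CPM, a 5.46-fold difference (5.24 to 5.68). The cytosolic pair SHMT1 and MTHFD1 summed differed 4.99-fold (4.80 to 5.19), but MTHFD1 held 10405 of its 10872 hESC reads. The 3 serine synthesis genes summed differed 3.39-fold (3.28 to 3.50). MTHFD2L, a paralogue of MTHFD2 with the same reaction, had 74 reads (4.26 CPM) and 156 reads (5.73 CPM) and did not pass the rule. The ratio of MTHFD2 to MTHFD2L reads was 11.1-fold lower in the NPC library (8.30 to 15.1). Per kb of the longest annotated transcript that ratio was 36.2 for hESC and 3.25 for NPC, so MTHFD2 stayed the more abundant of the pair by this length.

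The cytosolic enzymes differed from each other. MTHFD1, the trifunctional folate enzyme, had the most reads of the 10 in both libraries, with 10405 (599 CPM) and 2860 (105 CPM), and was 5.69-fold lower (5.46 to 5.94). SHMT1 had the fewest, with 467 (26.9 CPM) and 550 (20.2 CPM), a 1.33-fold difference (1.17 to 1.51) that did not pass the rule. Mitochondrial SHMT2 and cytosolic SHMT1 thus came closer to each other, with a read ratio 2.95-fold lower (2.56 to 3.39) in the NPC library. Per kb of the longest annotated transcript their ratio was 6.26 for hESC and 2.12 for NPC, values that depend on the transcript length used. The ratio of MTHFD1L to MTHFD1 reads in the NPC library was 0.995 of its hESC value (0.912 to 1.09), and that of MTHFD2 to MTHFD1 reads was 1.45-fold lower (1.33 to 1.59).

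GLDC, the decarboxylase of glycine cleavage, had 2295 hESC reads (132 CPM) and 1947 NPC reads (71.6 CPM). The difference was 1.84-fold (1.74 to 1.96) and did not pass the rule. GLDC made up 6.32% of the reads of the 10 enzymes in the hESC (exact binomial interval 6.07 to 6.57) and 13.8% in the NPC library (13.2 to 14.3). The share of MTHFD2 went from 10.3% (10 to 10.7) to 5.02% (4.67 to 5.39). The ratio of GLDC to SHMT2 reads was 2.12-fold higher in the NPC library (1.95 to 2.32). Of the other subunits of glycine cleavage, AMT, the aminomethyltransferase, had 355 and 151 reads and was 3.67-fold lower (3.03 to 4.48). GCSH, the lipoyl carrier protein, had 122 and 76.8 CPM, and DLD, the dehydrogenase shared with other complexes, had 120 and 74.6 CPM. Neither passed the rule. The ratio of GLDC to AMT reads was 1.99-fold higher (1.63 to 2.45).

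ASNS, asparagine synthetase, had 1445 hESC reads (83.1 CPM) and 597 NPC reads (21.9 CPM) and was 3.79-fold lower (3.44 to 4.17). It is a textbook target of ATF4, a transcription factor translated under amino acid shortage that binds a composite element with the letters TGATGNAA. This motif and the E-box CACGTG, bound by MYC and related factors, were searched on both strands in RefSeq promoter windows of GRCh38.p14, from 250 bases before to 50 bases after a transcript start. The symbols of 8 of the 10 enzymes matched (not PSPH and SHMT2), with 12 windows. TGATGNAA was found in 4 of these 12 windows, 1 of ASNS and 3 overlapping ones of MTHFD1L that hold the same site, and in 3.62% of all 35116 windows. CACGTG was found in 4 of the 12 windows, 1 of MTHFD1 and the same 3 of MTHFD1L, and in 7.26% of all windows. Counted by gene, each motif was found for only 2 of the 8 enzymes. PHGDH, PSAT1, SHMT1, MTHFD2 and GLDC held neither motif. The matches did not overlap each other. The 250 bases before the first listed start are shown for these 3 genes, on the strand of the gene, with the matches in capitals. For ASNS (chr7:97872409-97872658, minus strand) the match starts 68 bases before the transcript start. For MTHFD1L (chr6:150866236-150866485, plus strand) CACGTG starts 154 and TGATGCAA 129 bases before it. For MTHFD1 (chr14:64388103-64388352, plus strand) CACGTG starts 15 bases before it. The matches are letters in a window and no measurement of binding.
ASNS: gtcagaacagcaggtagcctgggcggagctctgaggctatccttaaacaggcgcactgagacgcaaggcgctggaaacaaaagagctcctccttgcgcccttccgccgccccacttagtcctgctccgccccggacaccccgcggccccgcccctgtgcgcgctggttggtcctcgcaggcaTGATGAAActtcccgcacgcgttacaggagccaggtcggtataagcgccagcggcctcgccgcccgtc
MTHFD1L: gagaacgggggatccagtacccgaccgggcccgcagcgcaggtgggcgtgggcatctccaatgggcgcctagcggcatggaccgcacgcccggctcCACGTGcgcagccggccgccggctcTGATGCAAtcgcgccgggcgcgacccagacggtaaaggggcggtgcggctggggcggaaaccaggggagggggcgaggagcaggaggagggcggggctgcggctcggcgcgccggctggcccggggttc
MTHFD1: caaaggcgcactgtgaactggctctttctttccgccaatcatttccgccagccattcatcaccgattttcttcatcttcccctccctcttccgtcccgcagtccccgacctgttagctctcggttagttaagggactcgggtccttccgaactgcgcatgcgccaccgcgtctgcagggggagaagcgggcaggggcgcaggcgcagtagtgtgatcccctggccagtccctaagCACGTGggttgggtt

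**Figure D2:**
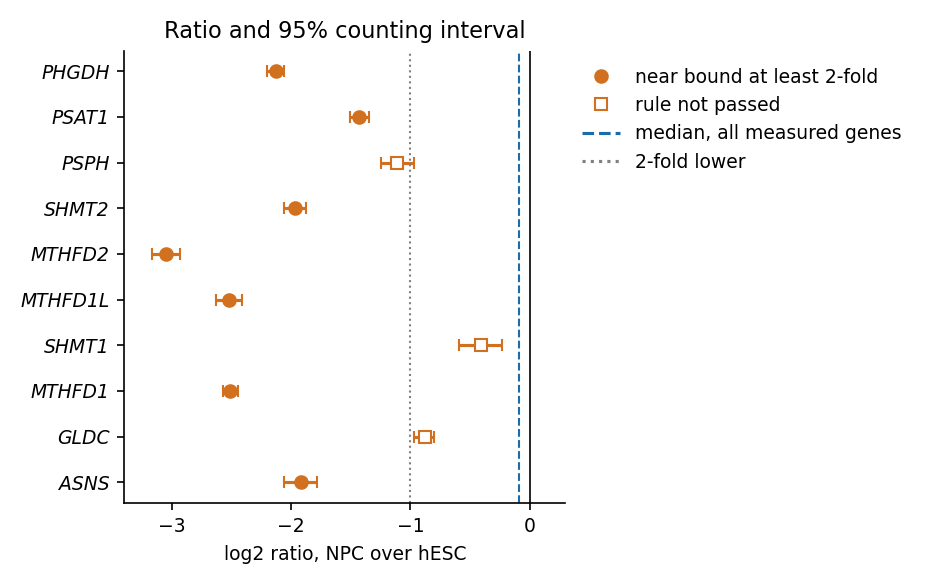
Log2 ratio, NPC over hESC, of each enzyme with its 95% counting interval. Filled circles mark the 7 genes whose near bound was at least 2-fold and open squares the 3 that did not pass. The dashed line is the median of all measured genes (-0.09) and the dotted line a 2-fold lower level. All 10 points lie left of the dashed line.

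Levels of different enzymes were compared per kb of the longest annotated transcript. In the hESC library PHGDH was highest with 120 CPM per kb, above 95.1% of measured genes, followed by PSAT1 with 93.9, MTHFD1 with 87.8 and SHMT2 with 61.0 CPM per kb. SHMT1 was lowest with 9.75 CPM per kb. In the NPC library PSAT1 came first with 34.9 CPM per kb, then PHGDH with 27.5 and GLDC with 18.4, and MTHFD2 was last with 5.86 CPM per kb. MTHFD2 thus went from above 88.2% of measured genes in the hESC to above 41.9% in the NPC library. Neighbours whose counting intervals overlapped were MTHFD1L and MTHFD2 and also ASNS and GLDC in the hESC library. In the NPC library these were SHMT2 and MTHFD1 and also ASNS and MTHFD1L. The order rests on the transcript length used: with the median annotated transcript, MTHFD1 came first in both libraries (814 and 143 CPM per kb) and SHMT1 last.

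**Figure D3:**
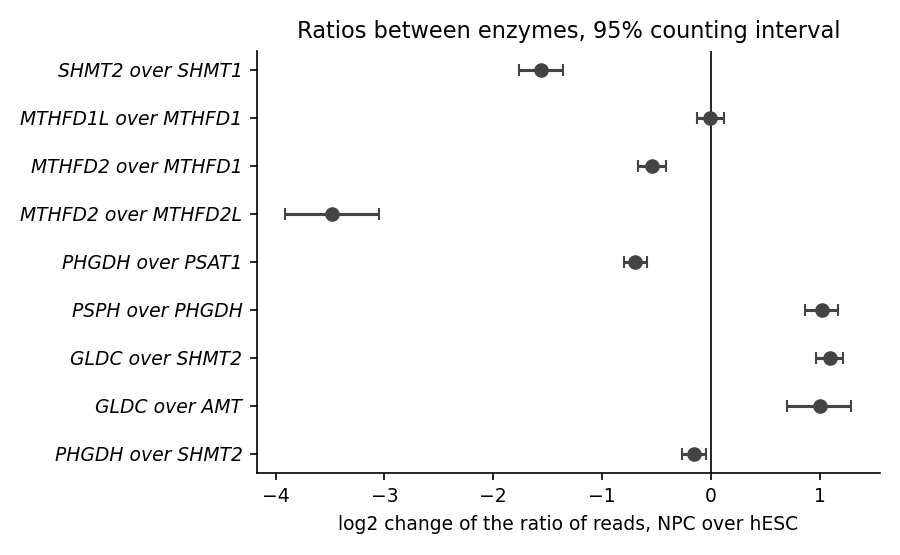
Log2 change of the ratio of reads of 2 enzymes from the hESC to the NPC library, with exact 95% counting intervals. MTHFD2 over MTHFD2L (-3.48) and SHMT2 over SHMT1 (-1.56) lie farthest below 0. PSPH over PHGDH (1.02), GLDC over SHMT2 (1.09) and GLDC over AMT (1) lie above 0, and MTHFD1L over MTHFD1 (-0.01) has an interval that holds 0.

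Of 19 listed folate and glycine cleavage partners of these enzymes 16 were measured, with 2 called higher and 3 lower and a median log2 ratio of -0.46. These counts are not above the shares of all measured genes (19.6% higher and 19.8% lower), and both higher calls are lost when the trend with transcript length is removed. The proton-coupled folate transporter gene SLC46A1 was 2.59-fold higher (2.22 to 3.03). MTHFS, which returns formyl-folate to the cycle, was 5.14-fold lower (3.94 to 6.85), and SLC25A32, the gene of the mitochondrial folate carrier, was 3.51-fold lower (3.11 to 3.97). TYMS, thymidylate synthase, had 89.6 and 116 CPM and did not pass the rule. ALDH1L2, the mitochondrial formyl-folate dehydrogenase, had 8 and 5.81 CPM, and its cytosolic counterpart ALDH1L1 had 12 and 13 reads, below the filter. In the list of the methionine cycle and transsulfuration 9 of 14 genes were measured, with 3 lower and none higher (median log2 ratio -0.57). Beside the 19.8% of all measured genes called lower, a count from so few genes does not set this list apart. CBS, which joins serine to homocysteine, had 9012 hESC reads (518 CPM) and 538 NPC reads (19.8 CPM) and was 26.2-fold lower (24.0 to 28.6). AHCY, which clears S-adenosylhomocysteine, was 4.68-fold lower (4.46 to 4.92), and MTRR, the reductase that keeps methionine synthase active, was 2.89-fold lower (2.54 to 3.29).

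Purine synthesis, which takes up glycine and formyl groups from this pathway, was lower almost throughout. Of 11 measured genes 10 were lower, against 19.8% of all measured genes. Each list was chosen with earlier results of these data known. The share beside a count therefore describes it and tests nothing. The median log2 ratio was -1.98, against the -1.95 of the 10 enzymes, and no gene of the list was higher. ATIC, which adds the second formyl group and closes the ring, was 8.17-fold lower (7.62 to 8.79). ADSL was 4.77-fold lower (4.55 to 5) and PFAS, which acts in the middle of the pathway, 4.80-fold lower (4.43 to 5.21). Genes of other amino acid synthesis were lower in 9 of 14 cases with none higher (median log2 ratio -1.45), beside the same 19.8%. Among them BCAT1, a cytosolic branched-chain aminotransferase, was 6.29-fold lower (5.94 to 6.67) and ASS1, argininosuccinate synthase, 6.63-fold lower (5.93 to 7.44).

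Of 15 measured genes that move or use serine and glycine, 3 were lower, 1 was higher and 11 did not pass the rule (median log2 ratio -0.68). Among all measured genes 19.8% were lower and 19.6% higher, so the counts do not set this list apart. SLC1A4, a transporter of serine and other neutral amino acids, had 43 hESC reads (2.47 CPM) and 1008 NPC reads (37.1 CPM) and was 14.8-fold higher (11.0 to 20.8). SLC1A5, a related glutamine and neutral amino acid transporter, was 12.0-fold lower (11.0 to 13.2), with 247 and 20.5 CPM. These paralogues therefore lay on opposite sides. SLC38A5, which carries glycine, serine and glutamine, had 540 and 13 reads and was 62.7-fold lower (37.7 to 123), and SLC38A1 was 3.24-fold lower (3.12 to 3.36).

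In the list of ATF4 and the amino acid response 10 of 18 measured genes were lower and none was higher (median log2 ratio -1.26). Of all measured genes 19.8% were called lower. ATF4 itself had 421 and 168 CPM and was 2.50-fold lower (2.41 to 2.60). The farthest were SLC7A5, a large neutral amino acid transporter gene, 19.7-fold lower (17.6 to 22.3), STC2, a secreted glycoprotein gene, 17.6-fold lower (14 to 22.7), and CHAC1, a glutathione-degrading enzyme gene, 12.1-fold lower (7.87 to 20.1). The other 8 measured genes did not pass the rule, among them SLC7A11, 2-fold higher (1.8 to 2.24), and DDIT3 (9.09 and 8.71 CPM). Since ATF4 is controlled at translation, its RNA does not measure its activity. In the proliferation list 13 of 17 genes were lower and none was higher (median log2 ratio -1.49). The share of all measured genes called lower is the same 19.8%, and both lists were also chosen with earlier results known. MYC, a growth-promoting factor gene, had 2208 and 40 reads and was 85.3-fold lower (63.2 to 121). The cyclin gene CCNE1 was 12.6-fold lower (10.9 to 14.7), and MCM5, a subunit of the replicative helicase, was 6.85-fold lower (6.39 to 7.34). MKI67 (415 and 633 CPM) and TOP2A (728 and 933 CPM), general markers of cycling cells, did not pass the rule. The part of proliferation in the values of the 10 enzymes was not tested.

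**Figure D4:**
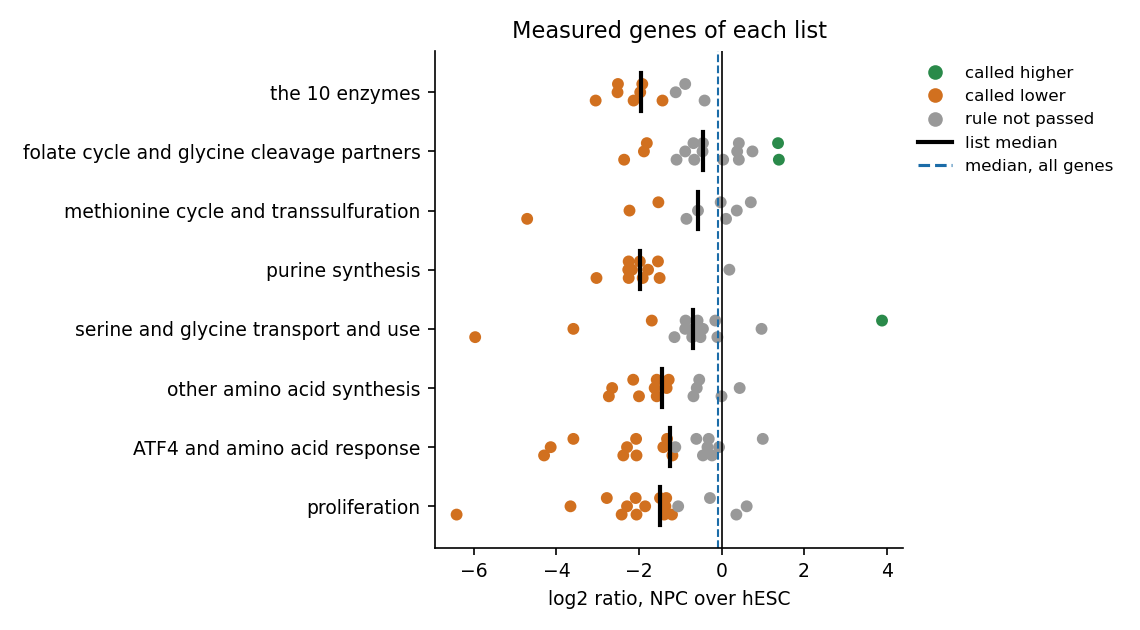
Log2 ratio, NPC over hESC, of each measured gene by list, with the list median as a black bar and the median of all measured genes (-0.09) as a dashed line. The 10 enzymes (-1.95) and purine synthesis (-1.98) have the lowest medians of the 8 lists plotted, and the folate and glycine cleavage partners (-0.46) lie nearest to all genes.

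The calls rest in part on the scaling. With the library total in place of TMM every log2 ratio moves up by 0.36, 13.2% of measured genes are called lower and 27.0% higher, and 6 of the 10 enzymes are lower. PSAT1 then loses its call with a log2 ratio of -1.07, and SHMT1 comes to -0.05. In the other lists 9 of 17 proliferation, 7 of 18 ATF4 and 7 of 14 other amino acid genes are then lower. The same holds for 2 of 9 methionine cycle genes and 10 of 11 purine genes. The counting was not stated to use strand, and some enzyme genes overlap a gene on the opposite strand. MTHFD1 overlaps ZBTB25 (435 and 287 reads). SHMT1 overlaps SMCR8 (593 and 605 reads), which had more reads than SHMT1 itself. Each gene has its own count, and only reads in a shared stretch could be assigned to the wrong gene. The overlap is of whole gene spans, and whether exons are shared was not examined. For MTHFD2 the opposite partner is SLC4A5 (157 and 214 reads), and the pseudogene copy MTHFD2P1 had 8 and 40 reads.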

How the data were processed

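Total RNA of 1 hESC and 1 NPC library was sequenced (SMARTER kit, per the labels' protocols). The authors deposited raw read counts per gene symbol. TopHat, edgeR and the hg19 build are named in the submitters' processing notes, with no role or order. How reads were counted, with which strand setting and with what rule for multiply mapped reads, is not given in the sources used here. Values of genes with near-identical copies are therefore uncertain.

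The files hold 25737 rows. For 286 symbols with repeated rows, the one with most summed reads was kept. TMM factors came from edgeR 4.0.16 in R 4.3.3. Ratios add 0.5 to each count, with exact Clopper-Pearson intervals on the NPC share of reads; ratios between enzymes have exact conditional intervals and levels exact Poisson ones. A level of 5 CPM is 86.9 hESC or 136 NPC reads. Intervals cover counting error only, and without stated molecular identifiers a read need not be an independent molecule. Lengths came from GENCODE 29 (GRCh38), found for 97.7% of measured genes, and promoters from RefSeq (GRCh38.p14). No protein sequences were compared. The interval code was tested on simulated Poisson counts, which hold counting error only and no variation between cultures.

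The members and the 12 other lists were chosen with earlier results of these data known. The text names the 10 enzymes, MTHFD2L, AMT, GCSH, DLD, TYMS, ALDH1L1, ALDH1L2, ATF4, MYC and, per pathway list, up to 3 called genes each way by the near bound. Some genes taken by this rule are not reported here. POU5F1, COL3A1, THY1, GJA1, S100B, SLC1A3, GFAP, AQP4, MAP2, RBFOX3, TUBB3 and SYN1 were named after their values were seen. So were SLC7A11, DDIT3, MKI67, TOP2A, ZBTB25, SMCR8, SLC4A5 and MTHFD2P1. Alternatives were the library total, DESeq2 1.42.0 and upper-quartile scaling, other filters and fold rules, removal of mitochondrial and ribosomal protein genes, summed rows, a lowess length trend (statsmodels 0.14.6) and other transcript lengths. Python 3.11.15 and scipy 1.17.1 were used.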

Additional observations from a re-analysis of the deposited data

How the results depend on the processing

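The 10 enzymes kept log2 ratios below 0 under each scaling and length setting tried. Between 6 (library total) and 8 (DESeq2 size factors, where PSPH passed with -1.14) were lower with the 2-fold bound, 8 with the point ratio, and 4 with a 4-fold bound. With that bound 0 folate partners were higher and 0 lower, and 5 purine, 2 other amino acid, 5 ATF4 and 6 proliferation genes were lower. The share of all measured genes called was computed only for the main rule and the library total. Counts under the other settings therefore have no such share beside them. With the library total 2 transport genes and 1 ATF4 gene were higher, and with the point ratio 1 ATF4 gene. With a filter at 1 CPM or none, 5 methionine cycle genes were lower, 2 transport genes and 1 other amino acid gene were higher, and with none 1 methionine cycle gene was higher. With the length trend removed 0 folate partners were higher, and log2 changes of enzyme ratios were 0.29 for MTHFD1L over MTHFD1, -0.36 for MTHFD2 over MTHFD1, -0.91 for PHGDH over PSAT1 and 1.23 for PSPH over PHGDH. Without mitochondrial and ribosomal protein genes the enzymes took 2010 CPM (hESC) and 625 CPM (NPC) of the reads that remained, with 1 row per symbol. The highest level per length was 12.3 (hESC) and 5.96 (NPC) times the lowest, and 50.2 and 11.7 times with the median transcript. The longest protein-coding transcript, added after seeing the data, kept PHGDH first in the hESC and PSAT1 first in the NPC library. No paired analysis was possible because each group has 1 library. For the same reason no library could be left out, and any batch cannot be told apart from the group.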
